A study of Mus musculus with 2 samples.

Results

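Müller glia with a very high level of Lcn2, the gene for a secreted protein that binds iron-carrying siderophores, were taken from mouse retinas after an intraocular injection of lipopolysaccharide. They were defined by a rule on the unique molecular identifiers (UMIs, each standing for 1 captured RNA molecule) of single cells. A cell needed at least 500 genes, under 25% mitochondrial UMIs and at least 2000 UMIs. At least 3 of 8 Müller genes (Rlbp1, Glul, Slc1a3, Dkk3, Crym, Abca8a, Aqp4, Sox9) had to be detected and together hold at least 0.15% of its UMIs, and Ptprc and Tyrobp, both leukocyte genes, had to sum to at most 1 UMI. Such cells are called Müller-gated, and those in which Lcn2 made up at least 2% of all UMIs are called Lcn2-high. The rule found 441 Lcn2-high cells among 13919 cell barcodes, and 542 Müller-gated cells with less Lcn2. Since Lcn2 and the 8 Müller genes chose the cells, their levels against other cells are given as a description.

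The study deposited 2 libraries. The Atg5-KO library came from GLAST-CreER; Atg5fl/fl mice given 4-hydroxy-tamoxifen, in which the GLAST (Slc1a3) promoter drives a recombinase that the drug activates, and the control library came from Atg5fl/fl mice, for which the labels name neither the recombinase nor the drug. All eyes received 0.5 µg of lipopolysaccharide, so neither library shows an uninjected retina, and each suspension pooled the retinas of its group (n = 6 per group). With 1 library per group there was no replicate check and no test: values are sums of UMIs per library as counts per 1000000 UMIs (CPM), intervals are exact 95% intervals that cover counting error only, and differences of genotype, Cre, drug and library cannot be told apart.

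Müller glia span the retina from the vitreous to the photoreceptors, recycle glutamate, buffer potassium and water, and carry retinoids for photoreceptors. After injury or exposure to bacterial products they become reactive and release cytokines, chemokines, acute-phase proteins and trophic factors. Lcn2 is a common marker of reactive glia and of the acute-phase response. Atg5 joins Atg12 in the complex that attaches LC3 to the membrane of the growing autophagosome.

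The promoters of 4 genes on which the comparisons below turn are shown with the letters that match published types of regulatory motif. Lcn2 chose the cells, C3, the central complement component, is an acute-phase gene like Lcn2, and Mt1 and Mt2, the metallothioneins that bind zinc and copper, differed between the libraries. Each sequence is from RefSeq (GRCm38.p6, the assembly of mm10) and runs from 250 bases before to 50 bases after the annotated start of the gene. In Lcn2 (chr2:32387690-32387989, minus strand) and C3 (chr17:57228087-57228386, minus strand), capitals mark a κB-like match (GGG and TCC with any 4 bases between them) and a C/EBP-like match (TTGCNNAA). In Mt1 (chr8:94178839-94179138, plus strand) and Mt2 (chr8:94172368-94172667, plus strand), they mark the core of the metal response element (TGCACNC or TGCGCNC), all searched on both strands.
Lcn2: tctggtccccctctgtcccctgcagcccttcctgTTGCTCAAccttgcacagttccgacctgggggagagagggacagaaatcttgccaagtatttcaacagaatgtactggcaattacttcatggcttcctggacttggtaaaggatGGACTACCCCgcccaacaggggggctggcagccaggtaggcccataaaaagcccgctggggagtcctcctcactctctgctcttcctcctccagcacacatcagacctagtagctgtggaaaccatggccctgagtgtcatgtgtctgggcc
C3: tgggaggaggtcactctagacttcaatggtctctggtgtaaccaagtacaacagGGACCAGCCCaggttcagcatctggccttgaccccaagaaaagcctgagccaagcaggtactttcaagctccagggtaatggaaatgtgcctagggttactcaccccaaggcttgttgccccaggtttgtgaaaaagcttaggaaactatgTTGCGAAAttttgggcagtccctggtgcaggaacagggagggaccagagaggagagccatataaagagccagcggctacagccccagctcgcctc
Mt1: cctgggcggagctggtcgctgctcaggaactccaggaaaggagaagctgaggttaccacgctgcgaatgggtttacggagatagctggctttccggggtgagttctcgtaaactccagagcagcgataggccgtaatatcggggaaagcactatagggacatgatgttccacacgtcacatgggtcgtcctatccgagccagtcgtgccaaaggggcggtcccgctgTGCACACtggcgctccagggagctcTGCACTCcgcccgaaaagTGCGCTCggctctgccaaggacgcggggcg
Mt2: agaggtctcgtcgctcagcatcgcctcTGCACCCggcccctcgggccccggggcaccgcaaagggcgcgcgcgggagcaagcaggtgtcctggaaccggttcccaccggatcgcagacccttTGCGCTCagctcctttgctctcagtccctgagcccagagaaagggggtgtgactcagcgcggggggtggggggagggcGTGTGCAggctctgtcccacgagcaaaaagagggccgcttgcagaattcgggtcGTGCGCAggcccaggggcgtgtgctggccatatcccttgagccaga
Both Lcn2 and C3 held 1 κB-like match, on the strand opposite to the printed one, and 1 C/EBP-like match. No marked match overlapped another. The Mt1 window also held 1 κB-like match and the Mt2 window 1 C/EBP-like match, left in lower case. Over all 32851 promoters of the table, 19.2% held the κB-like letters and 10.8% the C/EBP-like ones. The metal response core occurred 3 times in the Mt1 window and 4 times in the Mt2 window. At least 1 such core stood in 25.7% of all promoters and at least 3 in 1.97%. A match describes the letters only and shows no binding.

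The Atg5-KO library held 5229 barcodes and 50676223 UMIs, and the control library 8690 barcodes and 43669961 UMIs. Over all cells kept, the median was 6808 UMIs in Atg5-KO and 1396 UMIs in control. Müller-gated cells numbered 593 in the Atg5-KO library and 390 in the control library, after the leukocyte genes had removed 0 and 4 cells. Of these, 279 were Lcn2-high in Atg5-KO (47.0%, 43.0 to 51.2%) and 162 in control (41.5%, 36.6 to 46.6%), with intervals from counting cells within 1 library. The Lcn2-high cells had a median of 23079 UMIs in Atg5-KO and 28757 UMIs in control. The other Müller-gated cells had 20128.5 and 13832.5 UMIs in Atg5-KO and control, so in control they were the shallower ones. The libraries shared 15 barcodes, none of them an Lcn2-high cell.

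Lcn2 spread over a wide range among Müller-gated cells, from 0 UMIs to 9.92% of the UMIs of a cell in Atg5-KO and 11.0% in control. A large group had almost none: 193 Atg5-KO cells (32.5%) and 156 control cells (40.0%) were under 0.1%. Between 0.1% and 2% lay 121 Atg5-KO and 72 control cells, so the limit of 2% cut a continuous range. The median Lcn2-high cell gave 3.94% of its UMIs to Lcn2 in Atg5-KO and 4.78% in control. In rod-gated cells, which should lack Lcn2, the level was 490.2 CPM in Atg5-KO (488 cells, median 2685.5 UMIs) and 741 CPM in control (2974 cells, median 1166.5 UMIs), against 43118 and 51797 CPM in the Lcn2-high cells of Atg5-KO and control that remain after the split described below. Just inside the limit (2% to 2.2%), 11 Atg5-KO cells had 5229 CPM of Timp1 and 5 control cells 5888 CPM. Just outside it (1.8% to 2%), 10 Atg5-KO cells had 6622 CPM and 3 control cells 3857 CPM. Other genes differed in size and direction across the limit in these few cells. Ccl2 was at 246 CPM inside and 283 CPM outside in Atg5-KO, and at 2773 and 72.8 CPM in control. Lif was at 173 CPM inside and 547 CPM outside in Atg5-KO, and at 72.4 and 194 CPM in control. Timp1 is an inhibitor of matrix metalloproteinases.

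**Figure D1:**
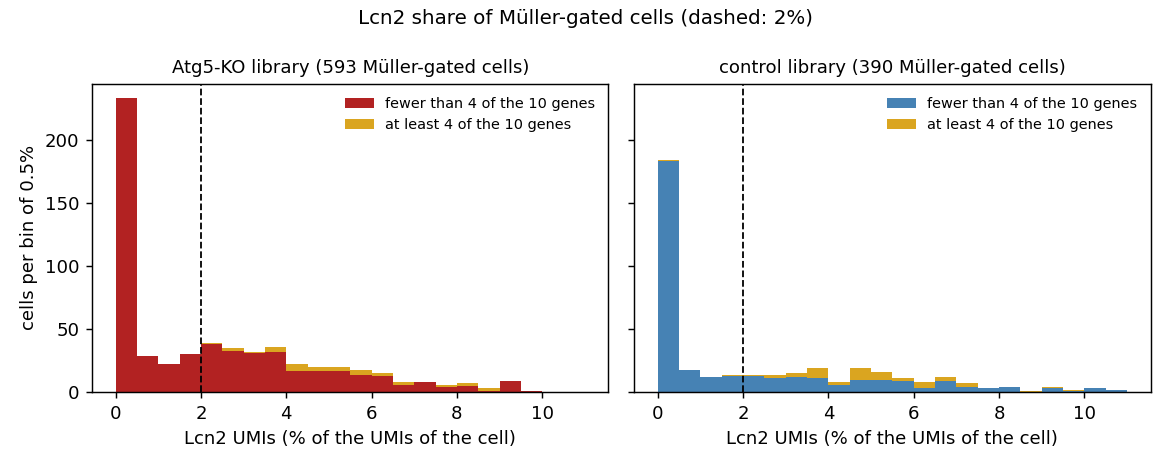
Number of Müller-gated cells (vertical axis) by the share of their UMIs that were Lcn2 (horizontal axis, bins of 0.5%), in the Atg5-KO library (left) and the control library (right), with cells that held at least 4 of 10 genes named in the text in yellow. The first bin is the tallest in both libraries, the dashed line marks the limit of 2%, and all yellow cells but 2 of the control library lie to its right.

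The Lcn2-high cells were not of 1 kind. Cells with UMIs of at least 4 of the genes Slc13a4, Slc6a13, Fmod, Cldn2, Crhbp, Fbln1, Lum, Orm1, Orm2 and Grem1, a set picked after its values had been seen, numbered 33 in Atg5-KO (11.8% of the Lcn2-high cells, 8.28 to 16.2%) and 48 in control (29.6%, 22.7 to 37.3%). They are called the Slc13a4/Fbln1 cells here, after 2 of the genes. They were large, with a median of 30460 UMIs in Atg5-KO and 60671 UMIs in control, and gave 25.7% of all Lcn2-high UMIs in Atg5-KO and 54.5% in control. Few cells lay between the kinds: 241 Atg5-KO and 107 control cells had 0 or 1 of the 10 genes, 9 and 10 cells had 2 to 5, and 29 and 45 cells had 6 or more. Among the other Müller-gated cells 0 Atg5-KO cells and 2 control cells held 4 of the genes, and outside the Müller gate 19 Atg5-KO cells and 9 control cells did.

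The Slc13a4/Fbln1 cells had most of their Müller-gate UMIs from Glul and Dkk3. Glul, the glutamine synthetase, stood at 911 CPM in Atg5-KO and 1380.2 CPM in control Slc13a4/Fbln1 cells, against 718 and 742 CPM in the remaining Lcn2-high cells of Atg5-KO and control. Crym, which binds thyroid hormone, was at 41.9 and 18.4 CPM against 1093 and 1022 CPM, in the same order. Rlbp1, the retinaldehyde-binding protein of Müller glia, was at 11.1 and 7.64 CPM against 122 and 134 CPM. Outside the rule, Kcnj10, the main potassium channel of Müller glia, was at 1.45 and 0 CPM against 38.8 and 38.9 CPM. Gfap, the intermediate filament of reactive glia, was at 10.6 and 13.7 CPM against 225 and 276 CPM. Part of the Müller markers was thus at or near 0 in these cells, and others were lower but present: Sox9 was at 229 and 218 CPM against 856 and 823 CPM. The 8 genes of the rule summed to 2049 and 2737 CPM in the Slc13a4/Fbln1 cells of Atg5-KO and control, against 4246 and 4425 CPM. The 8 Müller markers outside the rule, of which 0 in Atg5-KO and 1 in control were at 0, summed to 10470.3 and 9684 CPM, against 7779 and 9209 CPM in the remaining cells, with most of each sum from Clu and Apoe. The markers were divided on the name Müller glia, and no other name is given to these cells.

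Genes outside the chosen set also differed between the kinds, in both libraries. Ptgds, a prostaglandin D synthase, was at 1588 CPM in Atg5-KO and 3538 CPM in control Slc13a4/Fbln1 cells, against 129 and 111 CPM in the remaining cells. Ifitm1, an interferon-induced membrane protein, was at 3226 and 4627 CPM against 14.7 and 20.9 CPM. C3 was at 2570.2 and 2456 CPM against 395 and 532 CPM, and the acute-phase gene Saa3 at 7163 and 3332 CPM against 341 and 926 CPM. The transcription factor genes Pax6, at 335 and 476 CPM, and Lhx2, at 201 and 233 CPM, were higher there than in the remaining cells, at 165 and 178 CPM and at 108 and 112 CPM. Fibroblast markers (6 genes, 1 of them at 0 in each group) summed to 222 and 267 CPM in the Slc13a4/Fbln1 cells of Atg5-KO and control. In the remaining cells they summed to 21.7 and 26.2 CPM. The sum includes Lum, which belongs to the chosen set, so part of this excess was fixed by the split. Most of the sum was Col1a2, at 151 and 219.8 CPM in the Slc13a4/Fbln1 cells. Col1a1 was also higher there in both libraries, Dcn was lower in both, and Pdgfra was lower in Atg5-KO only. Of 9760 genes with enough UMIs, 728 (7.46%) were at least 2-fold higher in the Slc13a4/Fbln1 cells in both libraries and 857 (8.78%) at least 2-fold lower. The mitochondrial share had a median of 7.15% in Atg5-KO and 7.73% in control Slc13a4/Fbln1 cells, against 2.72 and 2.78%.

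**Figure D2:**
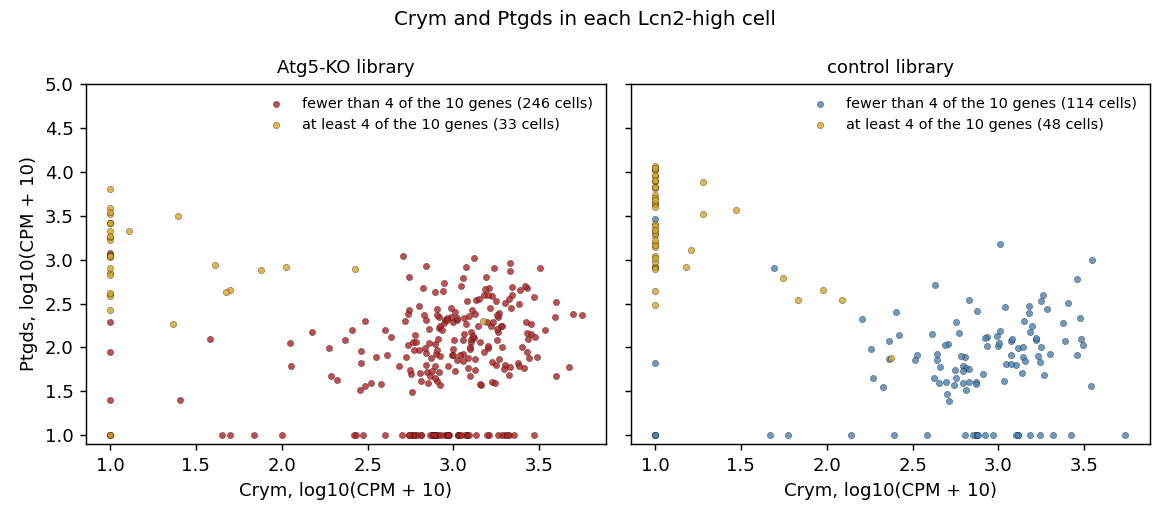
Each point is an Lcn2-high cell, placed by its level of Crym (horizontal axis) and Ptgds (vertical axis), both as log10(CPM + 10), in the Atg5-KO library (left) and the control library (right). Cells with at least 4 of the 10 genes (yellow, 33 in Atg5-KO and 48 in control) gather at low Crym and high Ptgds, apart from most of the 246 Atg5-KO and 114 control cells that remain.

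Since the Slc13a4/Fbln1 cells supplied different parts of the RNA of the libraries, the comparisons also leave them out. Gene counts, extreme ratios and some genes and lists are given for all Lcn2-high cells and for the remaining ones. The other genes and lists are given for the remaining cells only. The remaining cells were 246 in Atg5-KO (5999958 UMIs, median 22681 per cell) and 114 in control (3163644 UMIs, median 25903 per cell). They made up 43.9% of 560 such Müller-gated cells in Atg5-KO (39.8 to 48.2%) and 33.5% of 340 in control (28.5 to 38.8%). These intervals cover the counting of cells within 1 library, not the spread between animals or libraries, so they do not test the difference, and over all Müller-gated cells the order of the shares turned at a limit of 4% (23.1% in Atg5-KO and 25.6% in control). None of the 8 Müller markers outside the rule was at 0 in the remaining cells, in either library. The same held for the rod, cone, bipolar and amacrine markers, so this does not bear on the name. Rod markers (12 genes, none at 0) summed to 871 CPM in Atg5-KO and 2435 CPM in control, erythroid markers (5 genes, 0 at 0 in Atg5-KO and 1 at 0 in control) to 1796 and 6.32 CPM, with 97.5% of the Atg5-KO sum in 5 cells. Pericyte markers (7 genes, 1 at 0 in Atg5-KO and 3 in control) summed to 334 UMIs in Atg5-KO, 73.7% of them in 5 cells, and to 41 UMIs in control. Neutrophil markers (10 genes, 3 at 0 in each) summed to 318 and 215 UMIs, and monocyte and macrophage markers (10 genes, 2 at 0 in each) to 21.5 and 14.9 CPM. Astrocyte markers (6 genes, 0 at 0 in Atg5-KO and 1 in control) summed to 413 and 409 CPM. Of these, Gfap and Aldh1l1 were lower in Atg5-KO and the others higher, such as Pax2 (6.00 and 0 CPM) and Igfbp3 (24.5 and 0.948 CPM). Endothelial markers (8 genes, 1 at 0 in Atg5-KO and 2 in control) summed to 795 and 684 CPM, most of it Flt1. The part of this other RNA in the differences below was not tested, beyond the values given without cells rich in rod RNA.

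Atg5 itself stood at 17.7 CPM in the remaining Atg5-KO cells (106 UMIs) and 18.0 CPM in the control ones (57 UMIs), a ratio of Atg5-KO over control of 0.981 (0.704 to 1.38). Over all Lcn2-high cells the ratio was 0.718 (0.564 to 0.912). The sources used here do not give the deleted exons, and the counts come from the 3′ ends of transcripts, so this level does not check the deletion.

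Of the 6 genes given as markers of these cells, Lcn2, Cp, Timp1 and Ccl2 differed by less than 1.5-fold between the libraries. In the remaining cells Mt2 did too, with a ratio of 1.30. Among the remaining cells, Lcn2 was at 43118 CPM in Atg5-KO cells and 51797 CPM in control cells, a ratio of 0.832 (0.827 to 0.838). The rule kept only cells with at least 2% Lcn2 in both libraries, so the closeness of its levels was in part fixed by the choice of cells. Cp, the copper-carrying ferroxidase ceruloplasmin, was at 5962 CPM in Atg5-KO and 6284 CPM in control (ratio 0.949), and Timp1 at 6947 and 7206 CPM (ratio 0.964). For Ccl2, the chemokine that draws monocytes, the levels were 1914 CPM in Atg5-KO and 2340.3 CPM in control. Its ratio was 0.818 (0.794 to 0.842) in the remaining cells and 1.02 (0.996 to 1.04) over all Lcn2-high cells.

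Lif, Mt1 and Mt2 were higher in Atg5-KO. Lif, a cytokine of the interleukin-6 family that Müller glia release under photoreceptor stress, was, among the remaining cells, at 833 CPM in Atg5-KO cells and 551 CPM in control cells (ratio 1.51, 1.43 to 1.60) and had a ratio of 2.17 (2.06 to 2.28) over all Lcn2-high cells. The remaining-cell ratio lay on the line of 1.5-fold and was 1.35 under the lowest of 10 alternatives. It was uneven between cells: the median cell held 322 CPM in Atg5-KO and 208 CPM in control, and the cell at the 90th percentile 2293 and 1638 CPM. Mt2 was at 10114 and 7783 CPM (ratio 1.30, 1.28 to 1.32; 1.84 over all Lcn2-high cells), and Mt1, whose promoter window holds 3 metal response cores, at 30702 and 23004 CPM (ratio 1.33; 1.91 over all). In the remaining cells Mt1 and Mt2 stayed under 1.5-fold, with ratios of 1.08 and 1.07 under the lowest of 10 alternatives. Mt3, the brain metallothionein, stood at 404 and 404 CPM. In the Slc13a4/Fbln1 cells the same genes had higher ratios, 2.03 for Mt1 (11365 and 5588 CPM), 2.04 for Mt2 and 2.33 for Lif (302 and 129.7 CPM). By summed UMIs, both kinds of cell thus had more Mt1, Mt2 and Lif in Atg5-KO than in control. The largest Slc13a4/Fbln1 cell held 335721 UMIs in Atg5-KO and 197429 UMIs in control, and its part in these sums was not tested. The Slc13a4/Fbln1 cells, lower in all 3 genes than the remaining cells of their library, gave a larger part of the control RNA.

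Across bands of Lcn2, leaving out the Slc13a4/Fbln1 cells, several genes, among them Lif, Timp1 and Glul, differed more between the libraries in the lowest band than in the highest. The bands ran from under 0.1% over 0.1% to 2%, 2% to 4% and 4% to 6% to at least 6% of UMIs, and held 193, 121, 134, 65 and 47 Atg5-KO cells and 155, 71, 47, 35 and 32 control cells. Lif, in that order, was at 746, 658, 834, 828 and 836 CPM in Atg5-KO and 136, 211, 582, 472 and 606 CPM in control. In control it was thus low wherever Lcn2 was under 2%, and in Atg5-KO it was high in every band. Mt1 was at 31073, 25066, 30003, 31128 and 32318 CPM in Atg5-KO and 10913, 13501, 27708, 22341 and 18181 CPM in control. Its levels were closest at 2% to 4% and farthest apart under 0.1%. Cdkn1a, the cell cycle inhibitor p21, was at 387, 356, 316, 254 and 268 CPM in Atg5-KO and 80.3, 122, 115, 127 and 104 CPM in control, and was higher in Atg5-KO in all 5 bands.

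C3 was higher in bands with more Lcn2 in both libraries. It was at 140.1, 219, 225, 492 and 798 CPM in Atg5-KO and 94.8, 235, 264, 537 and 844 CPM in control, nearly equal within each band from 0.1% on. The lower C3 of the remaining Atg5-KO cells over all bands from 2% on (ratio 0.743, 0.698 to 0.791) stood beside a lower Lcn2 share, a median of 3.76% in Atg5-KO against 4.72% in control. Timp1 was at 5347, 4627, 5979, 7226 and 9682 CPM in Atg5-KO and 2112, 3069, 5722, 7059 and 9144 CPM in control, close from 2% on and apart under 2%. Ccl2 was at 1298, 727, 1534, 2095 and 2874 CPM in Atg5-KO and 478, 947, 1491, 2337 and 3355 CPM in control, so under 2% its order over the bands differed between the libraries. Genes of resting Müller glia were lower in the top band than in the lowest one. Glul was at 936, 958, 759, 644 and 703 CPM in Atg5-KO and 3047, 1347, 888, 693 and 624 CPM in control, and Rlbp1 at 206, 209, 141, 101 and 94.9 CPM in Atg5-KO and 667, 389, 190.1, 121 and 82.9 CPM in control. In the top band both genes were close in the 2 libraries, and under 0.1% both were higher in control. Each band is a part of 1 library, and Lcn2 counts in the total of each cell, so these values are a description.

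**Figure D3:**
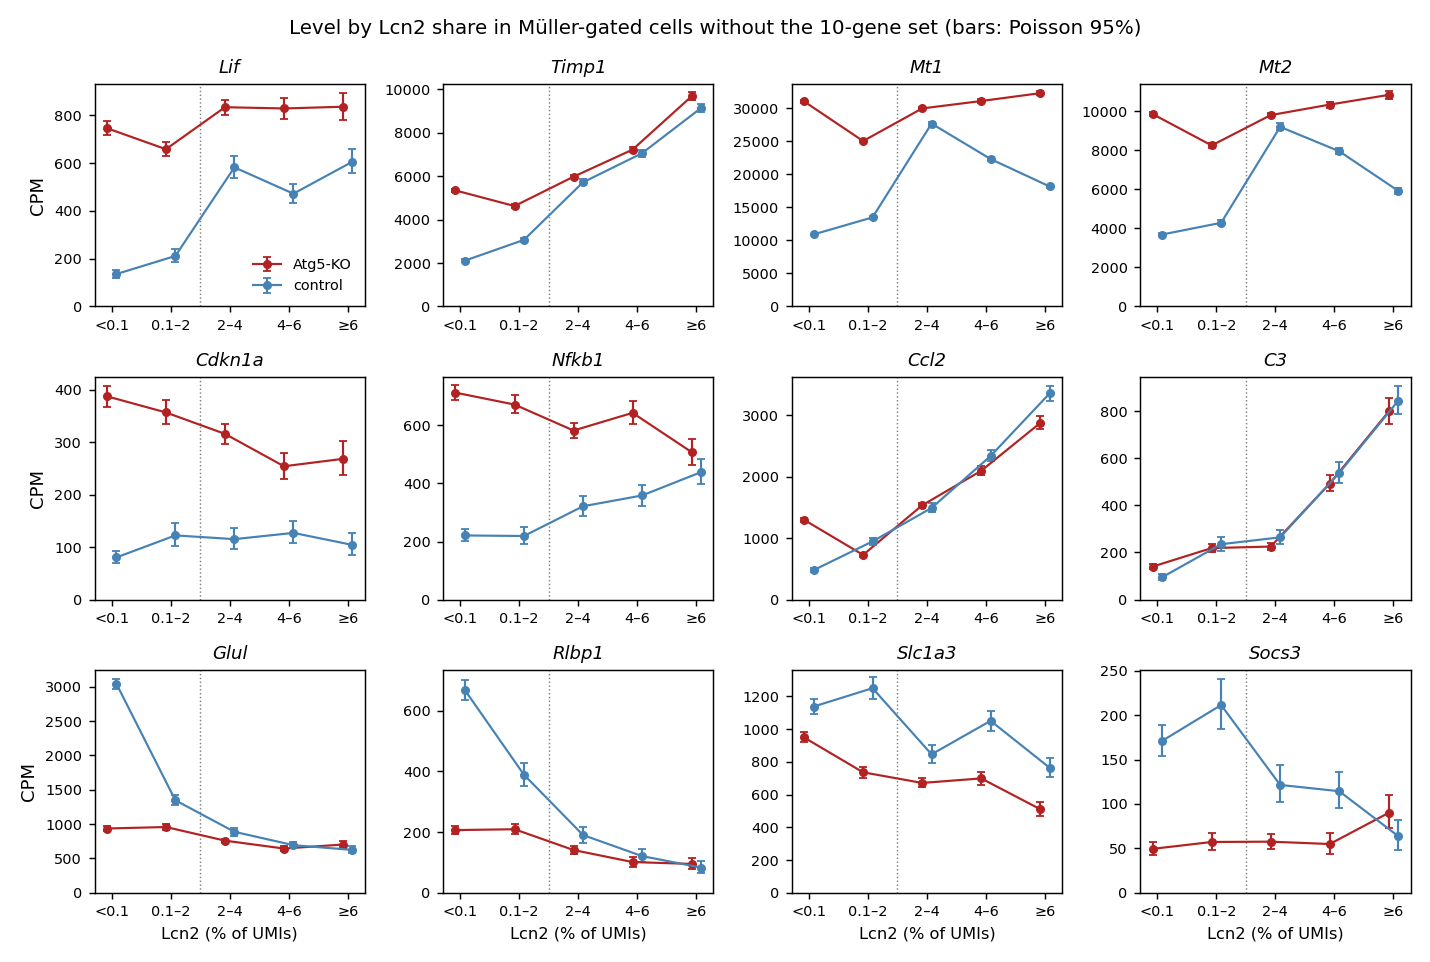
Level in CPM (vertical axis, from 0) of 12 genes by band of Lcn2 share (horizontal axis, % of UMIs) in Müller-gated cells without the Slc13a4/Fbln1 cells, Atg5-KO in red and control in blue, with exact 95% Poisson intervals and a dotted line at the limit of 2%. Lif, Timp1, Mt1, Mt2, Glul and Rlbp1 stand apart between the libraries at the left end, C3 runs together in both, and Cdkn1a stays higher in Atg5-KO.

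Over all Lcn2-high cells, 10238 genes were measured (100 UMIs or more in sum). Of these, 652 (6.37%) were at least 1.5-fold higher in Atg5-KO and 1073 (10.5%) at least 1.5-fold lower, with a median log2 ratio over all genes of -0.07. Of the 1073, 392 (36.5%) were at least 2-fold higher in Slc13a4/Fbln1 cells in both libraries, against 7.46% of the 9760 genes measured there, and 288 were also lower in the remaining cells. The split was chosen after such values had been seen, so these shares are a description, and the part of cell makeup in the lower calls was not tested. Of the 652 higher ones, 281 were at least 2-fold lower in the Slc13a4/Fbln1 cells in both libraries, against 8.78% of the 9760 genes. In the remaining cells 282 of the 652 were also higher. Of all 8515 genes measured in the remaining cells, 5.37% were higher and 6.48% lower. Those cells are part of all Lcn2-high cells, so the overlaps of 288 and 282 are partly built in. By the naming rule the smallest ratios were those of Flrt1 (8.42 CPM in Atg5-KO and 51.2 CPM in control), Slc13a4 (50.3 and 236 CPM), Iigp1, Fmod, Ptgds (504 and 1979.6 CPM), Necab2, Slc6a13, Fign, Tmem132c, Fam129a, Ccdc148 and Sned1. Slc13a4, Fmod and Slc6a13 are among the 10 genes that define the Slc13a4/Fbln1 cells, so their excess in those cells was fixed by the split. In the remaining cells Ptgds had a ratio of 1.16.

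The largest ratios over all Lcn2-high cells were those of Hilpda (6.93), Gdf15 (4.34), AW047730, Ets1 (3.81), Cdkn1a (3.71, 3.35 to 4.12), Tmem88, Hmga2, Aif1l, Srxn1 (3.04), Ero1l, Popdc3 and Lonrf3. Hilpda, a lipid droplet protein induced by hypoxia, had 177 of its 410 Atg5-KO UMIs in a single cell. Gdf15, a stress-induced cytokine, had 435 of 832 in a single cell. Neither stayed at 1.5-fold without the 5 cells, over both libraries, with most of its UMIs. Cdkn1a did not depend on few cells: 79.9% of Atg5-KO and 52.5% of control cells held at least 1 UMI. When every cell was thinned to 2000 UMIs, 35.1% of Atg5-KO cells (29.5 to 41.0%) and 14.2% of control cells (9.22 to 20.5%) did.

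In the remaining cells 8515 genes were measured, of which 457 (5.37%) were at least 1.5-fold higher in Atg5-KO and 552 (6.48%) at least 1.5-fold lower, with a median log2 ratio of -0.04. Cdkn1a was at 291 CPM in Atg5-KO cells and 116 CPM in control cells (ratio 2.51, 2.24 to 2.81), with a median cell of 179.8 CPM in Atg5-KO and 41.2 CPM in control. Ets1, a transcription factor, was at 93.7 and 35.7 CPM (ratio 2.62, 2.14 to 3.24), and Sertad2, a coregulator of transcription, at 273 and 102 CPM (ratio 2.67). Homer1, a scaffold protein of glutamate receptor signalling, was at 287 and 108 CPM (ratio 2.66), and the kinase Pim3 at 95.8 and 34.1 CPM (ratio 2.81, 2.28 to 3.48). Tmem88, which restrains Wnt signalling, had the largest ratio, 3.37 (2.29 to 5.14). The others were Lonrf3 (2.89), Caprin2 (2.83), Nabp1 (2.76), Klhl21 (2.57), Mapkapk3, a kinase downstream of p38 (2.50), and the netrin receptor Unc5b (2.45). All 12 kept a ratio of at least 1.5 under each of 10 alternatives.

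The smallest ratios in the remaining cells included genes induced by interferon. Iigp1, an interferon-induced GTPase, was at 6.67 CPM in Atg5-KO cells and 63.2 CPM in control cells (ratio 0.105, 0.0731 to 0.149), and 54 of its 200 control UMIs lay in a single cell. Cd74, the chaperone of major histocompatibility complex (MHC) class II, was at 55.2 and 262 CPM (ratio 0.210, 0.185 to 0.239), and 33.3% of Atg5-KO and 56.1% of control cells held a UMI. Ifi204 was at 13.3 and 54.1 CPM, the GTPase Ifi47 at 7.83 and 25.6 CPM, and the MHC class I gene H2-Q6, whose close relatives can share reads with it, at 15.3 and 41.7 CPM. All cells outside the Müller gate had Cd74 at nearly the same levels, 58.7 CPM in Atg5-KO and 250.2 CPM in control, and the part of free RNA or of other cells in this difference was not tested. In rod-gated cells Cd74 was at 2.88 CPM in Atg5-KO and 8.85 CPM in control. Fabp5, which carries fatty acids, was at 593 and 1929 CPM (ratio 0.307, 0.295 to 0.320). Tnfrsf11b, the decoy receptor osteoprotegerin, was at 22.3 and 57.2 CPM. The rest were Itm2a (0.320), the phosphatase Ptprt (0.394) and the histone genes Hist1h4i, Hist1h4h and Hist1h2bc (0.411), members of a family of near-identical genes. Ratios stayed at or under 1/1.5 in 10 alternatives, except Fabp5 (0.776) and Ifi47 (0.668) in cells with 2% to 4% Lcn2 and Ptprt (0.753) after thinning.

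**Figure D4:**
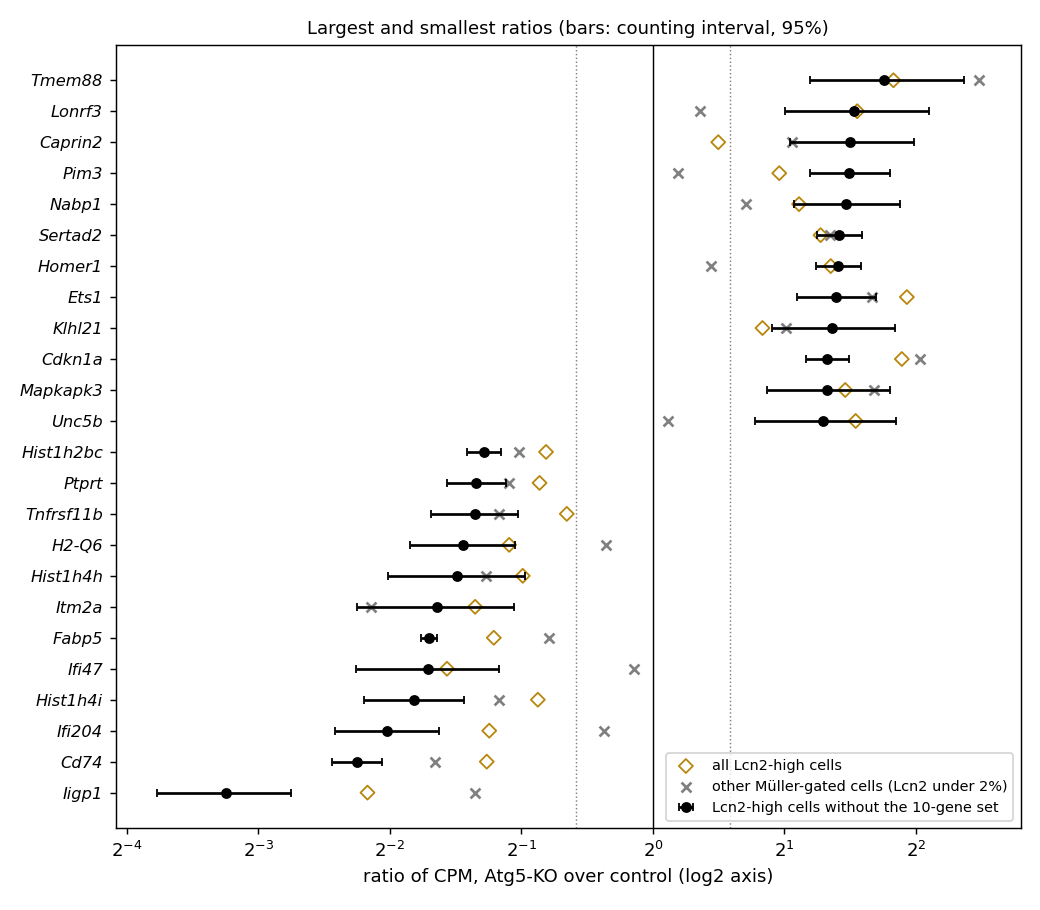
Ratio of CPM, Atg5-KO over control (horizontal log2 axis), of the 12 genes with the largest and the 12 with the smallest ratio in Lcn2-high cells without the Slc13a4/Fbln1 cells (black, with 95% counting intervals), beside all Lcn2-high cells (diamonds) and the other Müller-gated cells (crosses). Dotted lines mark 1.5-fold, and for Cd74 and Iigp1 the black points lie left of the diamonds.

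Of 30 measured genes of the interferon gamma response and antigen presentation, 12 were at least 1.5-fold lower in the remaining Atg5-KO cells and 1, Socs1, was higher, where 6.48% of all genes were lower and 5.37% higher. The list had a median log2 ratio of -0.40 against -0.04 over all genes. The MHC class II gene H2-Ab1 was at 3.83 CPM in Atg5-KO and 38.9 CPM in control (ratio 0.0986, 0.0603 to 0.155). Cells outside the Müller gate had more of it, 23.6 CPM in Atg5-KO and 108 CPM in control, which kept it out of the naming rule. Nlrc5, an activator of MHC class I genes, had a ratio of 0.375 (0.259 to 0.538), and the immunoproteasome subunit Psmb9 was at 18.8 and 37.9 CPM. Gbp4, a guanylate-binding protein, had a ratio of 0.282 (0.192 to 0.410), Gbp6 was at 63.2 and 116 CPM, and the immunity-related GTPase Irgm1 at 68.0 and 121 CPM. The most abundant member, B2m, the light chain of MHC class I, was at 909 and 1039 CPM (ratio 0.875). The receptor chain Ifngr1 was at 56.8 and 59.4 CPM. In cells with 2% to 4% Lcn2 the median of the list was 0.02.

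The type I interferon response had 7 lower and 1 higher of 28 genes (median log2 ratio -0.31), where 6.48% of all genes were lower and 5.37% higher. The same shares stand behind the complement and acute-phase counts of the remaining cells that follow. Isg15, a ubiquitin-like protein, was at 238 CPM in Atg5-KO and 352 CPM in control, Oas1a at 9.17 and 20.5 CPM, and Ifit2 at 11.7 and 23.4 CPM. Ifih1, the sensor of double-stranded RNA, was the higher one, at 85.8 and 55.0 CPM. Complement had 3 lower and 0 higher of 6 genes. Serping1, the inhibitor of C1, was at 214 and 336 CPM, C4b at 109 and 167 CPM, and Cd59a, a brake on the membrane attack complex, had a ratio of 0.416 (0.275 to 0.626). Among 11 acute-phase genes, which include Lcn2 itself, 4 were lower and 0 higher. Saa3 was at 341 and 926 CPM (ratio 0.369), and Saa1 and Saa2, near-identical genes, were at 11.2 and 41.7 CPM and at 12.8 and 52.5 CPM. Ptx3 was at 279 and 298 CPM. Over all Lcn2-high cells 7 of 8 complement genes and 6 of 14 acute-phase genes were lower and 0 higher. Of all genes measured in those cells, 10.5% were lower and 6.37% higher.

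The median of the chemokines lay on the other side of parity from that of the interferon lists. Of 12 measured, 4 were higher in the remaining Atg5-KO cells and 1 lower (median log2 ratio 0.29), where 5.37% of all genes were higher and 6.48% lower. Cxcl10, named for its induction by interferon, was at 223 CPM in Atg5-KO and 98.9 CPM in control (ratio 2.25, 1.99 to 2.55). Cxcl2, which draws neutrophils, was at 464 and 255 CPM (ratio 1.82), Cxcl12 at 89.2 and 49.3 CPM and Ccl19 at 29.0 and 16.4 CPM. Cxcl5 was lower, at 25.2 and 37.9 CPM, and Ccl5 had a ratio of 1.23. In the NF-κB list 3 of 19 genes were higher and 0 lower, against the same shares: Nfkb1, the p50 precursor, at 586 and 369 CPM (ratio 1.59, 1.48 to 1.70), and the deubiquitinases Tnfaip3, at 101 and 66.4 CPM, and Otud1, at 34.0 and 18.3 CPM. The ratio of Nfkb1 was 1.36 as a mean over cells. The inhibitor Nfkbia was at 748 and 842 CPM, and Rela at 58.3 and 53.4 CPM.

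In the interleukin-6 family and its STAT3 pathway, 3 of 18 genes were higher and 2 lower, where 5.37% of all genes were higher and 6.48% lower. Il11, a cytokine of the family, was at 43.5 CPM in Atg5-KO and 11.1 CPM in control (ratio 3.93, 2.76 to 5.77). Of the feedback inhibitors, Socs1 was at 111 and 71.8 CPM (ratio 1.54). Socs3 was at 62.3 and 102 CPM (ratio 0.612, 0.526 to 0.713), so the pair went opposite ways over these cells. By band of Lcn2, Socs3 was at 57.5 and 121 CPM from 2% to 4%, and 54.9 and 114 CPM from 4% to 6%. From 6% on it was at 90.01 CPM in Atg5-KO and 63.7 CPM in control, with overlapping intervals. Over all Lcn2-high cells its log2 ratio was -0.36, within 1.5-fold. Cntf, a trophic cytokine of the family, was at 45.0 and 74.0 CPM. Stat3 itself was at 469 and 577 CPM, the shared receptor chain Il6st at 95.2 and 102 CPM, and Lifr at 17.7 and 17.1 CPM. Cebpd, a transcription factor of the acute-phase response, was at 2888 and 3234 CPM (ratio 0.893). Of 16 genes of interleukin-1 signalling and lipopolysaccharide sensing, 2 were lower (Irak3 and Il18bp) and 0 higher, against the same shares. The alarmin Il33 was at 885 and 989.7 CPM and the adaptor Myd88 at 23.7 and 21.2 CPM.

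Growth arrest genes had 4 higher and 0 lower members of 24 (median log2 ratio 0.13), where 5.37% of all genes were higher and 6.48% lower. Beside Cdkn1a these were Gadd45b, a stress sensor, at 835 CPM in Atg5-KO and 396 CPM in control (ratio 2.11, 1.98 to 2.24), Gdf15, at 22.7 and 6.64 CPM, and the cyclin-dependent kinase inhibitor Cdkn2b, at 20.5 and 13.3 CPM. The p53 targets Mdm2, at 76.8 and 69.5 CPM, and Bax, at 138 and 130.2 CPM, differed by less than 1.5-fold. Over all Lcn2-high cells 10 of 25 genes of the list were higher, where 6.37% of all genes were. Early response genes had 3 higher (Maff, Fosl1 and Klf10) and 0 lower of 26 in the remaining cells, and 12 higher and 1 lower of 27 over all Lcn2-high cells. Maff, a small Maf factor, was at 359.8 and 162 CPM (ratio 2.21), and Fosl1, a subunit of AP-1, had a ratio of 1.79 (1.61 to 1.99). Fos and Jun, the most studied AP-1 subunits, were at 4503 and 4844 CPM and at 2889 and 3206 CPM, ratios of 0.930 and 0.901.

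The counts of autophagy and lysosome genes lay near or under those over all genes, of which 5.37% were higher and 6.48% lower. Of 27 measured genes of the autophagy machinery, Wipi2, which recruits the Atg5 complex to membranes, was higher, at 81.2 CPM in Atg5-KO and 50.6 CPM in control (ratio 1.60, 1.34 to 1.93). Atg16l1, the partner of Atg5 and Atg12, was lower, at 14.7 and 23.1 CPM (ratio 0.636, 0.461 to 0.879). The LC3 gene Map1lc3b was at 173 and 138 CPM and Gabarap at 319.5 and 340.1 CPM. Of 16 receptors and cargo adaptors only Bnip3, a receptor for mitochondria, passed 1.5-fold, at 68.0 and 41.1 CPM. Sqstm1, the cargo receptor p62, whose protein is degraded by autophagy, was at 359 and 302 CPM (ratio 1.19, 1.10 to 1.28). Of 24 lysosomal genes 0 were higher and 0 lower, from Lgmn (ratio 0.757) to Neu1 (ratio 1.36). RNA levels do not measure autophagic flux.

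Among oxidative stress genes that NRF2 drives, Srxn1 and Hmox1 were higher and 0 lower of 22, near the 5.37% higher over all genes. The share of lower genes was 6.48%, and both apply to the lists that follow. Srxn1, which repairs peroxiredoxins, was at 225 CPM in Atg5-KO and 96.1 CPM in control (ratio 2.34, 2.07 to 2.66), and Hmox1, the heme oxygenase, at 195 and 103 CPM (ratio 1.89). Other targets lay near parity, such as the glutathione synthesis gene Gclm at 60.0 and 62.0 CPM. In the unfolded protein and integrated stress list, 3 were higher (Ern1, Ddit3 and Dnajb9) and 2 lower (Pdia4 and Sdf2l1) of 26. Ddit3, the transcription factor CHOP, was at 266 and 156 CPM (ratio 1.70), whereas the chaperone gene Hspa5 was at 605 and 669 CPM. Iron genes had 2 higher (Hmox1 and Slc22a17, the receptor of the Lcn2 protein, at 17.5 and 11.4 CPM) and 1 lower (Steap3) of 18. The ferritin chain Fth1 was at 7203 and 6910.4 CPM. Over all Lcn2-high cells the unfolded protein and integrated stress list had 1 higher and 6 lower of 29. Of all genes measured in those cells, 6.37% were higher and 10.5% lower.

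Of 15 matrix proteases and inhibitors, Mmp3, Plat and Adam12 were higher and Mmp12 lower, where 5.37% of all genes were higher and 6.48% lower. Plat, the tissue plasminogen activator, was at 515 CPM in Atg5-KO and 322 CPM in control (ratio 1.60). Mmp12 was at 22.8 and 107 CPM. Over all Lcn2-high cells its ratio turned from 0.472 to 12.6 once the 5 cells, over both libraries, with most of its UMIs were left out, so its low value rested on few cells. Trophic genes split, with 5 higher and 4 lower of 17, against the same shares. Hbegf, a ligand of the EGF receptor, was at 632 and 299 CPM (ratio 2.12, 1.97 to 2.28), Vegfa, the vascular growth factor, at 116 and 57.2 CPM (ratio 2.03), and Inhba at 291 and 164 CPM. On the lower side Edn2, an endothelin that stressed photoreceptors and glia use, was at 8.17 and 18.6 CPM and Angptl4 at 36.5 and 64.5 CPM.

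Against 5.37% higher and 6.48% lower over all genes measured in the remaining cells, of 27 gliosis genes 4 were higher, among them Nes, the filament nestin, at 204 CPM in Atg5-KO and 113 CPM in control (ratio 1.81), and 3 lower, among them Hspb1 at 72.0 and 125 CPM. Gfap was at 225 and 276 CPM (ratio 0.817, 0.749 to 0.890) and Vim, the filament vimentin, at 1235 and 1404 CPM (ratio 0.879). Over all Lcn2-high cells the ratio of Gfap was 1.28, on the other side of parity. Of 36 homeostasis genes 3 were higher, among them Spc25 and Abca8b, and 4 lower (Fabp5, Col9a1, Apoe and Slc38a3). Apoe, the lipid carrier, was at 2203 and 3562 CPM (ratio 0.619, 0.603 to 0.634), and Slc1a3, the glutamate transporter GLAST whose promoter drives the Cre, at 651 and 893 CPM (ratio 0.729, 0.695 to 0.766). Glul (ratio 0.969), Dkk3 (ratio 0.992) and Kcnj10 (ratio 0.999) stood near parity in these cells. The gliosis list had a median log2 ratio of -0.06 in the remaining cells and 0.32 over all Lcn2-high cells. Over all Lcn2-high cells 4 of its 29 genes were higher and 2 lower, where 6.37% of all genes were higher and 10.5% lower.

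**Figure D5:**
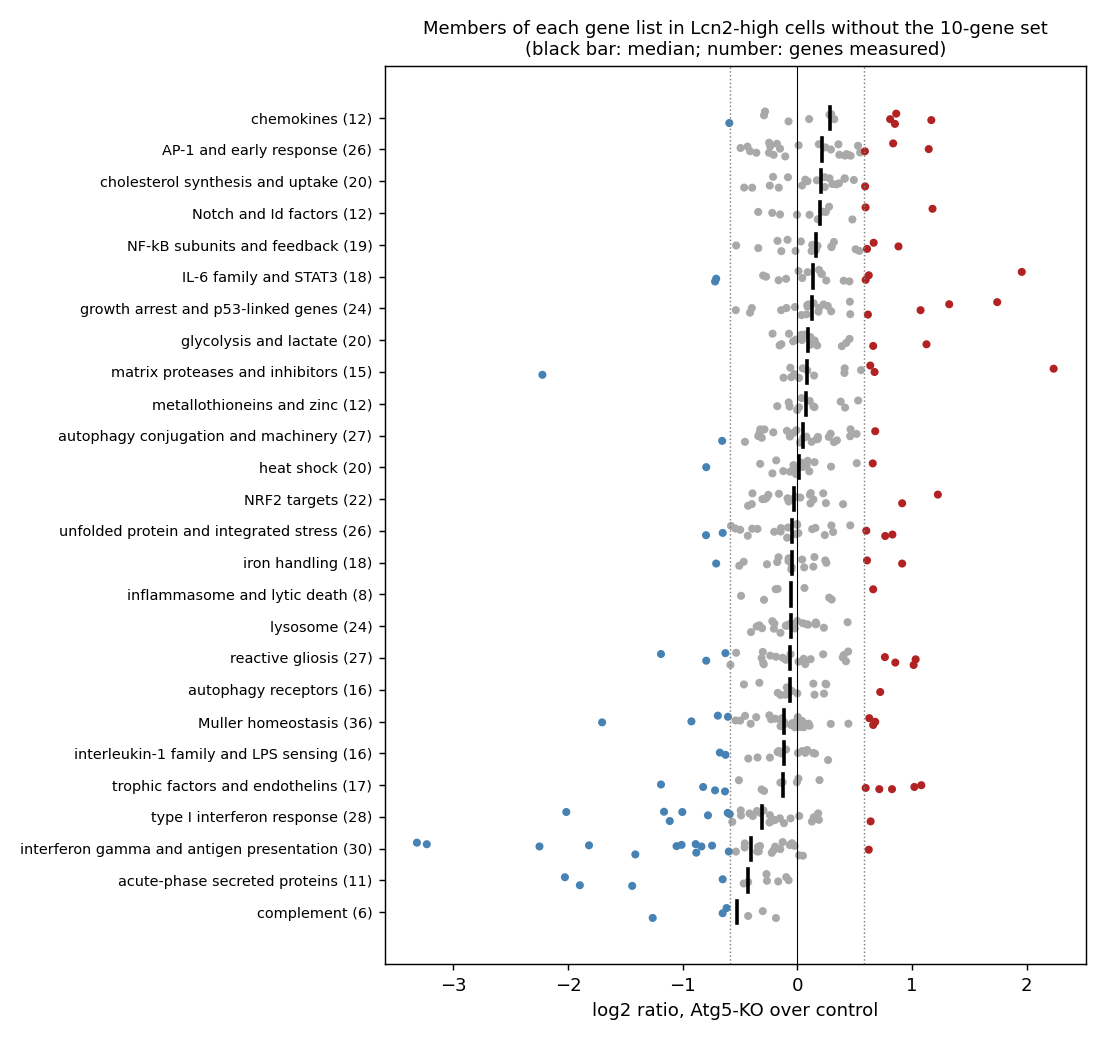
log2 ratio of Atg5-KO over control (horizontal axis) of each measured member of 26 gene lists in Lcn2-high cells without the Slc13a4/Fbln1 cells, with the median as a black bar and the number measured beside the name. Red points are at least 1.5-fold higher in Atg5-KO and blue points at least 1.5-fold lower, and the complement, acute-phase and interferon lists stand at the bottom with medians from -0.52 to -0.31.

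Set against the other Müller-gated cells, all Lcn2-high cells were at least 2-fold higher in both libraries in 343 of 11248 genes (3.05%) and at least 2-fold lower in 309 (2.75%), and without the Slc13a4/Fbln1 cells these counts were smaller. The remaining Lcn2-high cells differed in few genes in both libraries: 62 of 10178 (0.609%) were at least 2-fold higher and 151 (1.48%) at least 2-fold lower in both. Since Lcn2 chose the cells, these values are a description. Beside Lcn2, the genes named by the rule as higher included Fabp5, Tnfrsf11b, Ptges2, Itga5, Rasef, Chil1, Tcim and Ifitm2. Chil1, a chitinase-like protein of reactive glia, was at 1849.7 CPM against 623 CPM in Atg5-KO, and 1983 CPM against 364 CPM in control. Fabp5 was at 593 CPM against 83.0 CPM, and 1929 CPM against 144 CPM. Of the acute-phase genes, 6 of 11 were among those higher (Lcn2, Saa1, Saa2, Saa3, C3 and Ptx3). The place of Lcn2 among them was fixed by the rule.

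Of the 5 given markers beside Lcn2, 0 were 2-fold higher than in the other Müller-gated cells in both libraries. In Atg5-KO, Timp1 was at 6947 CPM against 5047 CPM, Ccl2 at 1914 CPM against 1060.4 CPM, Lif at 833 CPM against 709 CPM, Mt2 at 10114 CPM against 9178 CPM and Cp at 5962 CPM against 5899.5 CPM. In control, Timp1 was at 7206 CPM against 2339 CPM, Ccl2 at 2340.3 CPM against 612 CPM, Lif at 551 CPM against 155 CPM, Mt2 at 7783 CPM against 3762 CPM and Cp at 6284 CPM against 7037 CPM. In control the first 4 were thus 2-fold or more higher in Lcn2-high cells, and in Atg5-KO the ratios were 1.38 for Timp1, 1.8 for Ccl2, 1.17 for Lif and 1.10 for Mt2. The genes named as lower than in other Müller-gated cells were Cys1, Pcolce2, Dpyd, Abca8a, Fxyd3, Bmp3, Rida, Cmpk2, Nrp1 and Nkd1. Abca8a, a lipid transporter gene of Müller glia, was at 45.3 CPM against 91.8 CPM in Atg5-KO, and 33.2 CPM against 503 CPM in control.

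More genes passed 1.5-fold between the libraries in the other Müller-gated cells than in the Lcn2-high ones. Of 9386 genes measured in them, 666 (7.1%) were at least 1.5-fold higher in Atg5-KO and 1831 (19.5%) at least 1.5-fold lower. Of the 457 genes higher in the remaining Lcn2-high cells, 137 were also higher in the other cells and 51 were lower there. Of the 552 lower ones, 298 were also lower in the other cells and 14 were higher. Cdkn1a had a ratio of 4.09 in the other cells, Lif 4.58, Nfkb1 3.21, Mt1 2.51 and Glul 0.385. The control cells of that comparison had a median of 13832.5 UMIs and a rod RNA median of 0.0916% of UMIs, against 0.0182% in Atg5-KO, and whether depth or rod RNA bears on the difference was not tested.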

How the data were processed

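Single-cell RNA of retinas was captured with a 10x Genomics 3′ kit. The deposited matrices hold whole-number UMI counts per gene and cell, not normalized, made by the authors with Cell Ranger 6.0.0 on mm10 per the series' design text, which also names Seurat 5.2.1; the gene annotation release is not given in the sources used here. Features numbered 32285, and 40 of them that repeat an earlier symbol were left out of the per-gene values. Cells were filtered and gated as stated in the report, UMIs were summed per library (1 per group) and divided by the total to give CPM. Intervals are exact: Poisson for levels, conditional binomial for ratios, Clopper-Pearson for shares (95%), and cover counting error only. log2 ratios had 0.5 counts added. Genes were called by size, at 100 UMIs or more (50 per library for 2-fold contrasts within a library). No doublet caller was run, so cells of very high UMI count may be doublets. Free RNA was not removed.

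Named genes had at least 100 UMIs, a UMI in 25% of the cells of 1 library and, where higher, a level at least that outside the Müller gate: the 12 largest and 12 smallest ratios between libraries, the 10 largest and smallest against other cells, members of each of 26 lists with the extreme ratios or most UMIs, and fixed marker genes. Further list members were named after their values were seen, and some genes that the rule names are not reported here. The members and lists were chosen with earlier results of these data known. The split by 10 genes, its cut and its alternatives were added after seeing the data. Rod-gated cells had at least 2% rod marker UMIs and under 0.05% of the Müller genes. Scripts used Python 3.11.15, numpy 2.4.6, scipy 1.17.1, pandas 2.3.3 and, for TMM factors as an alternative, edgeR 4.0.16 in R 4.3.3, and were tested on simulated data. The alternatives, 16 over all Lcn2-high cells and 10 in the remaining ones, are in the closing section.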

Additional observations from a re-analysis of the deposited data

Results flagged for a closer look

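For 7 named genes the ratio of Atg5-KO over control lay on opposite sides of parity, past 1.5-fold on each, in all Lcn2-high cells and in the other Müller-gated cells; the difference was not tested, since each value comes from 1 library per group. The ratio of Spc25 was 2.55 in Lcn2-high cells and 0.156 in other Müller-gated cells. For Popdc3 it was 2.94 in Lcn2-high cells and 0.630 in other Müller-gated cells, for Abca8a 2.00 in Lcn2-high cells and 0.183 in other Müller-gated cells, for Bmp3 1.63 in Lcn2-high cells and 0.412 in other Müller-gated cells and for Dpyd 1.55 in Lcn2-high cells and 0.431 in other Müller-gated cells. In the opposite sense, Slc7a11, the cystine transporter, had a ratio of 0.640 in Lcn2-high cells and 1.93 in other Müller-gated cells, and Steap4, a metalloreductase, 0.525 in Lcn2-high cells and 1.69 in other Müller-gated cells. Without the Slc13a4/Fbln1 cells the Lcn2-high ratios were 1.61 for Spc25, 1.10 for Slc7a11, 0.723 for Steap4, 1.89 for Popdc3, 1.37 for Abca8a, 1.03 for Bmp3 and 1.16 for Dpyd. Spc25 and Popdc3 still lay past 1.5-fold on opposite sides there, and the others did not.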

How the results depend on the processing

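No paired analysis was possible because each group had 1 library, and no library could be left out. Leaving out the Slc13a4/Fbln1 cells moved the count of genes lower in Atg5-KO from 1073 to 552. Other moved counts of higher genes, over all Lcn2-high cells, were 397 (Lcn2 at least 4%), 117 (cells thinned to 2000 UMIs), 4580 (no minimum of UMIs) and 346 (minimum of 400 UMIs). For lower genes they were 88 (thinned), 4490 (no minimum) and 386 (minimum of 400). In the remaining cells 69 genes were higher after thinning and 223 without the 5 top cells of each gene, and 870 were lower by the mean over cells, 53 after thinning and 364 with rod markers under 0.2%. Thinning and higher minimums test fewer genes by construction. The Lcn2-high share was 55.8% in Atg5-KO and 48.2% in control at a limit of 1%, 23.1% and 25.6% at 4%, 41.0% and 35.3% with a gate of 0.3% and 4 Müller genes, and 48.0% in control with at least 5000 UMIs per cell. At 4% the order of the shares was turned.

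Ratios that turned without the Slc13a4/Fbln1 cells were those of Kcnj13 (1.58), Sned1 (1.65), Ptgds (1.16), Ccdc148 (1.46), Slc7a11 (1.10), Sod3 (1.01) and Slc13a4 (7.91). With 2% to 4% Lcn2 they were Csf3 (0.0487), Hspa1b (0.716), and the medians of the chemokine list (-0.44, all cells) and of the interferon gamma list (0.024, remaining cells). With the stricter gate they were Csf3 (0.605), Gdnf (0.949), Hspa1b (0.428) and, against other Atg5-KO cells, Orm1 (0.438), Grem1 (0.910) and Crhbp (0.986). Without the 5% largest cells they were Csf3 (0.444) and Hspa1b (0.659), and without the top 5 cells Hspa1b (0.769) and Mmp12 (12.6). At 4% Lcn2 they were Grem1 (1.26) and Bmp3 (0.825), and after thinning Dpyd (0.829), Pik3r4 (3.19) and, against other control cells, Cela1 (1.01) and Lgi4 (1.01). The cause was not tested, and the turn of Slc13a4 follows from leaving out the cells it defines. TMM factors shifted every log2 ratio by 0.06. Low genes, such as Atg5 with 106 and 57 UMIs in the remaining Atg5-KO and control cells, are limited by depth.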

Other observations

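In the Slc13a4/Fbln1 cells, 33 in Atg5-KO and 48 in control, some secreted factors stood higher in Atg5-KO by summed UMIs. The largest of these cells held 335721 of 2076064 UMIs in Atg5-KO and 197429 of 3794420 UMIs in control. The part of such single cells in the ratios below was not tested within these cells, and the counting intervals do not cover it. Orm1, an acute-phase glycoprotein, was at 1905 CPM in Atg5-KO and 736 CPM in control (ratio 2.59, 2.47 to 2.72). Its neighbour Orm2, a near-identical gene, went the other way, at 556 and 924 CPM (ratio 0.602). Orm1, Orm2 and Grem1 are among the genes whose detection defined these cells, so their levels here depend in part on that choice. Over all Lcn2-high cells the ratio of Orm1 ran from 0.00675 to 1.77 over the alternatives, which include leaving these cells out. Il19, a cytokine of the interleukin-10 family, was at 340.1 and 133 CPM, and Csf3, the granulocyte colony-stimulating factor, at 668 and 131 CPM. Over all Lcn2-high cells the ratio of Csf3 was 0.444 without the 5% of cells with most UMIs, so its direction rested on large cells. Cdkn1a was at 108 and 23.7 CPM (ratio 4.55), so it was higher in Atg5-KO in these cells as in the remaining ones. Grem1, an antagonist of bone morphogenetic proteins, was at 1701 and 1518 CPM (ratio 1.12). Lcn2 was at 57684 and 54162 CPM.

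Over all genes of the remaining cells 5.37% were higher and 6.48% lower, and the counts of these lists of 8 to 20 genes are a description beside those shares. Pfkfb3, a regulator of glycolysis, was at 36.8 CPM in Atg5-KO cells and 16.8 CPM in control cells (1.62 to 3.03 as the interval of the ratio), the lactate transporter Slc16a3 had a ratio of 1.60, and the other 18 of 20 glycolysis genes did not pass 1.5-fold. Of 20 cholesterol genes 1, Sc5d (ratio 1.51), was higher. Heat shock genes had 1 higher (Dnajb1, ratio 1.58) and 1 lower (Hspb1) of 20, genes of lytic cell death 1 higher (Pycard) and 0 lower of 8, and Notch and Id genes 2 higher (Id4 and Maml1) and 0 lower of 12.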
